A study of Homo sapiens with 4 samples.

Results

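The hypoxia-inducible factor HIF1A and 9 genes that HIF is known to switch on, VEGFA, EGLN1, EGLN3, CA9, BNIP3, BNIP3L, ADM, ANKRD37 and P4HA1, were followed in RNA-seq libraries of LNCaP cells. The 10 genes were taken by symbol from the 60675 genes in the count files, and 9 of them were among the 17600 genes tested. LNCaP, a human prostate cancer line that responds to androgen, was kept in medium depleted of hormones. Every culture received 1 nM R1881, a synthetic androgen, for 72 h, with DMSO vehicle in 2 libraries and with 50 µM CPI-455, an inhibitor of the KDM5 histone demethylases, in the other 2. No library came from a culture without R1881, so each comparison is between androgen with and without CPI-455 in 1 cell line.

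HIF is a pair of proteins, an oxygen-sensitive alpha subunit (HIF1A or EPAS1) and a stable partner (ARNT). When oxygen is present the prolyl hydroxylases EGLN1, EGLN2 and EGLN3 mark the alpha subunit, VHL and its ubiquitin ligase partners then destroy it, and HIF1AN blocks what is left from binding the coactivators EP300 and CREBBP. These hydroxylases and the KDM5 demethylases all belong to the dioxygenases that use iron and alpha-ketoglutarate, and inhibitors of the prolyl hydroxylases stabilise HIF and raise its target genes. The comparison asked whether such a rise was seen at the RNA level with CPI-455. HIF protein was not measured in these files, and HIF is mainly controlled at the protein level.

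HIF binds DNA at the short core ACGTG or GCGTG, read on either strand, so the 250 bases before the start of each gene were searched for these letters. RefSeq promoters (GRCh38.p14) were found for 8 of the 10 genes, all except VEGFA and BNIP3L. Of the 8, 7 held a core, 5 of them ACGTG and 3 GCGTG, while 43.2% of the 35116 promoters in the table held either one, 18.5% ACGTG and 32.2% GCGTG. The counts are of genes, by any listed start, while the shares are of promoters. Base composition was not matched between them, so they are not a like comparison. A match is a description of the letters and not a measured binding site. The promoters of the called genes with a core, to set those higher and lower with CPI-455 side by side, ANKRD37 (chr4:185396591-185396840, plus strand), ADM (chr11:10304823-10305072, plus strand), EGLN1 (chr1:231422288-231422537, minus strand) and P4HA1 (chr10:73096867-73097116, minus strand), and that of BNIP3 (chr10:131981924-131982173, minus strand), which held the most matches, are printed 5′ to 3′ along the gene with each core in capitals (CACGT and CACGC are the same cores on the other strand).
ANKRD37: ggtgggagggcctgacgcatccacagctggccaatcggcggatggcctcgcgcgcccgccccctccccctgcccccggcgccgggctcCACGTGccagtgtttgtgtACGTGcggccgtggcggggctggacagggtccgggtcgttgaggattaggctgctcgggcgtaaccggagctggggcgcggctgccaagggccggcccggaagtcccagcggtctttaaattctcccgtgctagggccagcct
ADM: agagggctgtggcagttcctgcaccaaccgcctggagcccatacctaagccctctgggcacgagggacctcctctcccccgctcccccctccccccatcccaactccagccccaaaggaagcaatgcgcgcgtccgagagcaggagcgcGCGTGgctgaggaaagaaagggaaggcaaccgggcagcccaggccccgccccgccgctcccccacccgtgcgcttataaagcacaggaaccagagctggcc
EGLN1: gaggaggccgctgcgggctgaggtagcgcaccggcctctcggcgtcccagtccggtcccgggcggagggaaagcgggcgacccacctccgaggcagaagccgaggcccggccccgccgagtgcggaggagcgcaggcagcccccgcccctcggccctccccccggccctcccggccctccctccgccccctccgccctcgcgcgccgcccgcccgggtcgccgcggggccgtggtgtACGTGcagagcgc
P4HA1: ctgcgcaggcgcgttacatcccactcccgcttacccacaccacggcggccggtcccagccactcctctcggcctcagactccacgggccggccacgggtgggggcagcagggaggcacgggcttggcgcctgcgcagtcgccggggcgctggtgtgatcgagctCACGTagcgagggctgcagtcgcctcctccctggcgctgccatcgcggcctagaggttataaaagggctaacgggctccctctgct
BNIP3: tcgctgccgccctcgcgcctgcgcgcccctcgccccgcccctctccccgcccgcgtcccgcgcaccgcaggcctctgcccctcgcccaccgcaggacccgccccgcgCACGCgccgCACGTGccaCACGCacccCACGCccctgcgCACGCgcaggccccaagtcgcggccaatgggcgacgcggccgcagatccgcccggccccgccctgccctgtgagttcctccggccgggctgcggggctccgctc
ANKRD37 had the palindrome CACGTG, which counts on both strands, starting 162 bases before its start and ACGTG at 143. ADM had GCGTG at 101 bases, EGLN1 had ACGTG at 13 bases and P4HA1 had CACGT at 86 bases. BNIP3 had 6 matches between 143 and 104 bases, a CACGTG palindrome among them. CA9 had CACGT at 18 bases, HIF1A had GCGTG at 204 bases before one of its 2 listed starts, and EGLN3 had no core in this window. Cores were thus present both before genes that were higher with CPI-455 (ANKRD37, ADM) and before genes that were lower (EGLN1, P4HA1).

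The vehicle libraries held 19623553 and 20690819 counted fragments and the CPI-455 libraries 9522920 and 5401588, so values with CPI-455 rest on fewer fragments. A count of 3 corresponded to 0.137 to 0.142 CPM (counts scaled to the normalized library size) in the vehicle libraries and to 0.337 to 0.595 CPM in the CPI-455 libraries. The nuclear RNA MALAT1 took 0.0884 to 0.114% of the fragments with vehicle and 4.95 to 6.49% with CPI-455, and mitochondrially encoded genes took 1.91 to 2.43% and 0.967 to 1.24%. Of 9 LNCaP and luminal prostate markers, all were detected in every library, and 6 were called lower with CPI-455, beside 21.3% of all tested genes. Their summed level was 883 to 957 CPM in the vehicle libraries and 383 to 438 CPM in the others. The marker KLK2 went the other way, from a mean of 74.3 to 110 CPM (log2 fold change 0.56), and was not called. Markers of other cell types were low in both groups, with summed levels of 4.49 to 5.49 and 10.5 to 10.7 CPM for 6 fibroblast markers, mostly COL1A1, 0.615 to 0.641 and 1.24 to 2.38 CPM for 6 leukocyte markers, and 1.23 to 1.60 and 0 to 0.450 CPM for 4 endothelial markers. The fibroblast marker LUM and the leukocyte marker MS4A1 were at 0 in all libraries. The part of these differences in the results that follow was not tested.

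The 10 genes did not rise together with CPI-455. ADM and ANKRD37 rose, EGLN1, EGLN3, BNIP3L and P4HA1 fell, HIF1A, VEGFA and BNIP3 were not called, and CA9 was at or near 0 in every library. A gene was called when its Benjamini-Hochberg adjusted p (FDR) in edgeR's quasi-likelihood test was below 0.05 and its change was at least 2-fold. Of the 9 tested genes, 2 were called higher and 4 lower, while 21.0% of all tested genes were called higher and 21.3% lower, 42.4% in either direction. The median log2 fold change of the 9 genes was −0.67, beside −0.04 over all tested genes, and the middle 50% of those genes ran from −0.96 to 0.94. The 9 genes are all protein-coding, and protein-coding genes leaned lower. Of the 13813 protein-coding genes tested, 15.6% were called higher and 24.4% lower, with a median of −0.21. Shares given beside the lists below are of all tested genes. By FDR without the fold minimum, 3 of the 9 genes were higher and 5 lower (all tested genes, 29.8% and 32.8%). In 3 of the 9 genes both CPI-455 libraries lay above both vehicle libraries, and in 5 both lay below (39.1% and 42.8% of all tested genes).

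**Figure D1:**
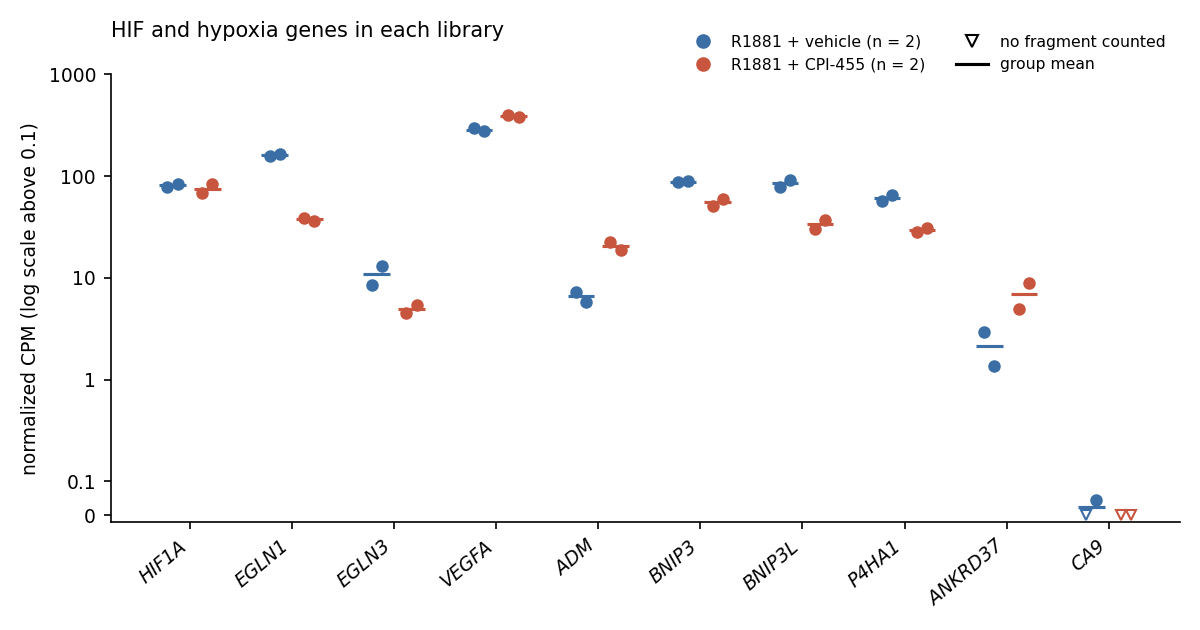
Normalized CPM (log scale above 0.1) of the 10 genes in each library, with R1881 and vehicle in blue and with R1881 and CPI-455 in red; points are libraries and bars are group means of 2. The red points lie below the blue ones for EGLN1, EGLN3, BNIP3, BNIP3L and P4HA1, above them for VEGFA, ADM and ANKRD37, and among them for HIF1A.

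HIF1A (ENSG00000100644, chr14:61695513-61748259, plus strand) encodes the oxygen-sensitive subunit. It was measured at 78.8 and 83.8 CPM with vehicle and at 67.5 and 83.3 CPM with CPI-455. The groups overlapped, and the log2 fold change of −0.12 ± 0.14 (SE) did not pass the test (FDR = 0.489). Its sign depended on the scaling, with 0.06 under upper-quartile normalization. In bulk RNA such as this, fewer cells of one kind and less RNA per cell cannot be told apart, and every fold change is relative to the other genes of its library. The antisense gene HIF1A-AS1, which shares 117 of the 5151 exon bases of HIF1A, had 8 and 12 fragments with vehicle against 0 and 0 with CPI-455. These are low raw counts, and the CPI-455 libraries held fewer fragments, so they are not read as a change of HIF1A-AS1.

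EGLN1 (ENSG00000135766, chr1:231363751-231425044, minus strand) encodes the main oxygen-sensing prolyl hydroxylase, and it is also a HIF target. It showed a larger change than the other 8 tested genes as fitted here, though not without vehicle replicate 1 (EGLN1 −2.15, ANKRD37 2.29) or with the length and GC trend removed (−1.64 and 1.65). It was measured at 158 and 164 CPM with vehicle and at 38.7 and 36.1 CPM with CPI-455, far apart and close within each group. It fell 4.29-fold (log2 fold change −2.10 ± 0.12 SE, FDR = 1.56e-06), and 7.11% of all tested genes had a lower log2 fold change. It was called under all 14 settings that kept every library, with log2 fold changes from −2.29 to −1.64. No exon base of EGLN1 is shared with another gene.

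EGLN3 (ENSG00000129521, chr14:33924231-34462774, minus strand) encodes a second hydroxylase of the family, which is strongly induced by hypoxia in many cells. It was measured at 8.47 and 13.2 CPM with vehicle and 4.50 and 5.35 CPM with CPI-455. The groups did not overlap, but the vehicle libraries differed from each other. EGLN3 fell 2.22-fold (log2 fold change −1.15 ± 0.33 SE, FDR = 0.0123). Without vehicle replicate 2 the log2 fold change was −0.81 and the call was lost (FDR = 0.278). EGLN2, the remaining hydroxylase of the family, was not called, with a mean of 14.3 CPM with vehicle and 14.0 CPM with CPI-455 (log2 fold change −0.05 ± 0.24 SE, FDR = 0.871), and 0.13 under upper-quartile normalization.

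VEGFA (ENSG00000112715, chr6:43770184-43786487, plus strand) encodes the growth factor that drives vessel formation. It was the gene with the most fragments of the 10, at 294 and 274 CPM with vehicle and 401 and 379 CPM with CPI-455. Both CPI-455 libraries were above both vehicle libraries. The difference was 1.37-fold (log2 fold change 0.46 ± 0.11 SE, FDR = 0.00464), under the 2-fold minimum, so VEGFA was not called.

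ADM (ENSG00000148926, chr11:10304680-10307397, plus strand) encodes adrenomedullin, a vasodilator peptide. It was measured at 7.29 and 5.82 CPM with vehicle and at 22.7 and 18.6 CPM with CPI-455, with 94 to 202 fragments in each library. The groups were well separated. ADM rose 3.17-fold (log2 fold change 1.67 ± 0.24 SE, FDR = 0.000287), and like EGLN1 it was called under all 14 settings that kept every library, from 1.40 to 1.85. It shares no exon base with another gene. The annotated exons of ADM merge into 1 block of 2718 bases, the whole span of the gene, and those of VEGFA into 4 blocks. Fragments from introns that some transcripts keep are therefore counted for these genes. The paper reports that most of its retained introns occurred with CPI-455. The part of intronic RNA in the higher values of ADM and VEGFA was not tested.

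ANKRD37 (ENSG00000186352, chr4:185396021-185400628, plus strand) encodes an ankyrin-repeat protein and is a known HIF target. It had few fragments, 62 and 30 in the vehicle libraries and 44 and 45 in the CPI-455 libraries, which correspond to 2.94 and 1.37 CPM and to 4.95 and 8.92 CPM. The groups did not overlap, but the libraries of each group were apart. ANKRD37 rose 3.15-fold (log2 fold change 1.65 ± 0.50 SE, FDR = 0.0162), and without vehicle replicate 2 the call was lost (1.20, FDR = 0.161). It shares 909 of its 2580 exon bases with UFSP2 on the opposite strand, and since strand was not used, fragments there were left out of both genes. UFSP2 had 354 and 367 fragments with vehicle against 169 and 120 with CPI-455 and was not called (log2 fold change 0.34 ± 0.20 SE, FDR = 0.169).

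BNIP3 and BNIP3L encode related receptors on the mitochondrial outer membrane, which mark mitochondria for removal by autophagy. BNIP3L (ENSG00000104765, chromosome 8, plus strand) was measured at 78.1 and 91.7 CPM with vehicle and at 30.1 and 37.1 CPM with CPI-455. It fell 2.55-fold (log2 fold change −1.35 ± 0.16 SE, FDR = 7.26e-05). BNIP3 (ENSG00000176171, chr10:131966455-131982013, minus strand) was measured at 86.4 and 88.7 CPM with vehicle and at 50.3 and 60.1 CPM with CPI-455. Its groups did not overlap either, but the difference of 1.60-fold was under the minimum and BNIP3 was not called (log2 fold change −0.67 ± 0.14 SE, FDR = 0.00204). Whether the changes of the 2 receptors differ from each other was not tested. BNIP3 has 44 named copies in the genome, none with more than 26 fragments in a library, and fragments that matched BNIP3 and a copy were not counted. BNIP3L shares 386 of its 4307 exon bases with genes on the opposite strand, among them PNMA2, itself called lower (log2 fold change −1.80).

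P4HA1 (ENSG00000122884, chr10:73007217-73096974, minus strand) encodes a catalytic subunit of collagen prolyl hydroxylase, another dioxygenase. It was measured at 57.4 and 65.5 CPM with vehicle and at 28.2 and 31.1 CPM with CPI-455, with no overlap. It fell 2.08-fold (log2 fold change −1.06 ± 0.15 SE, FDR = 0.000259), close to the 2-fold minimum. Leaving out vehicle replicate 2 gave −0.98 and leaving out CPI-455 replicate 1 gave −0.999, and the call was lost in both cases on the size of the change.

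CA9 (ENSG00000107159, chr9:35673856-35681159, plus strand) encodes a carbonic anhydrase of the cell surface and is a classic marker of hypoxia. It had 0 and 1 fragments with vehicle against 0 and 0 with CPI-455. These counts allow a level of up to 0.142 CPM (3 counts) in the first vehicle library and of up to 0.337 and 0.595 CPM in the CPI-455 libraries, by counting error alone. CA9 was therefore not detectable in either group at this depth. It shares 643 of its 1670 exon bases (38.5%) with ARHGEF39 on the opposite strand, where fragments were not counted, while the rest of its exons could have given counts. ARHGEF39 had 226 and 220 fragments with vehicle against 411 and 307 with CPI-455.

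**Figure D2:**
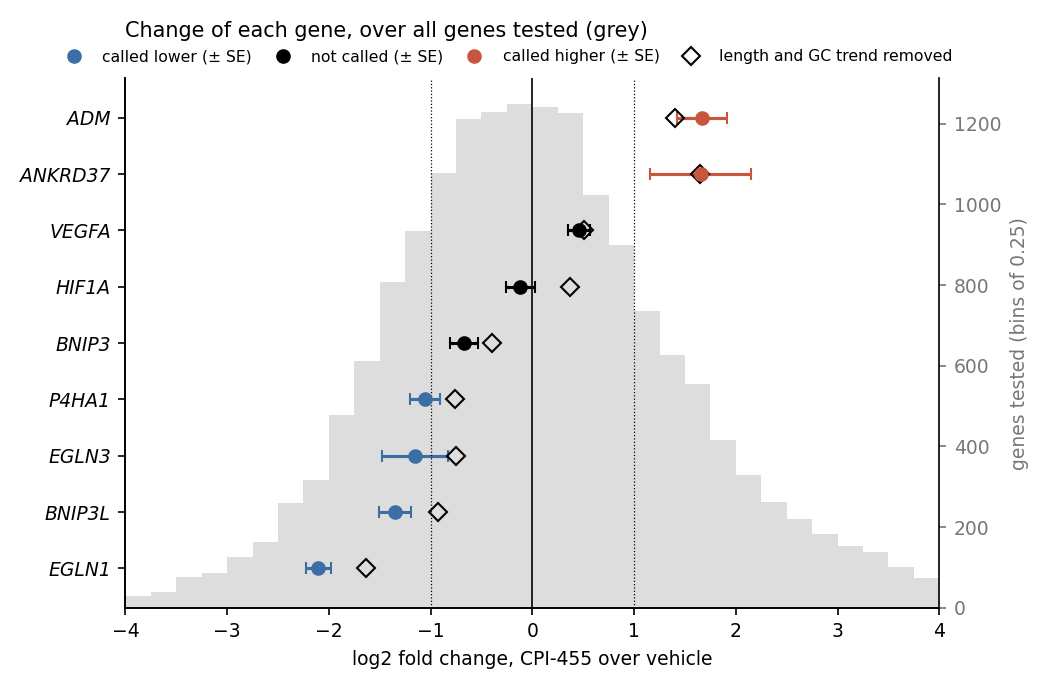
Log2 fold change (CPI-455 over vehicle) of the 9 tested genes with its SE as a bar, over a histogram of all 17600 tested genes in grey (right axis, bins of 0.25); dotted lines mark 2-fold, and diamonds are the values after a trend with exon length and GC content was removed. EGLN1 at −2.10 and ADM at 1.67 stand outside the middle 50% of the histogram, and HIF1A at −0.12 is near its centre.

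Per exon length, the order of the genes differed between the groups. With vehicle the levels in FPKM (CPM per kilobase of annotated exon) were 22.2 ± 0.55 for EGLN1 (SD, n = 2), 19.9 ± 1.85 for P4HA1, 19.7 ± 2.22 for BNIP3L, 19.7 ± 0.96 for VEGFA, 16.4 ± 0.30 for BNIP3 and 15.8 ± 0.68 for HIF1A. ADM (2.41 ± 0.38), EGLN3 (1.47 ± 0.45) and ANKRD37 (0.835 ± 0.43) were far below. P4HA1, BNIP3L and VEGFA did not differ from each other beyond their spread, nor did BNIP3 from HIF1A. With CPI-455 the order was VEGFA (27.0 ± 1.09 FPKM), HIF1A (14.6 ± 2.17), BNIP3 (10.4 ± 1.30), P4HA1 (9.60 ± 0.66), BNIP3L (7.80 ± 1.14), ADM (7.61 ± 1.06), EGLN1 (5.15 ± 0.25), ANKRD37 (2.69 ± 1.09) and EGLN3 (0.669 ± 0.082). EGLN1 thus moved from the top of the order to below ADM. BNIP3 and P4HA1 overlapped, as did BNIP3L and ADM. All annotated exons were counted as length, so genes with long or rare exons, such as VEGFA with 14431 bases, are set low on this scale.

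Ratios within a library do not depend on how libraries are scaled. For each fragment of EGLN1, VEGFA had 1.86 and 1.67 fragments with vehicle but 10.4 and 10.5 with CPI-455. The ratio of HIF1A to EGLN1 was 0.498 and 0.511 in the vehicle libraries, then 1.74 and 2.31 in the CPI-455 libraries. The ratio of ADM to EGLN1 was 0.0461 and 0.0355 without CPI-455 and 0.587 and 0.516 with it. These ratios show unequal change of the paired genes in every library, under any scaling, and not which of them moved.

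The 17 listed factors of the HIF pathway were read next. Of the 16 tested, 6 were called lower and 0 higher (median log2 fold change −0.73), beside 21.3% and 21.0% of all tested genes. Under upper-quartile normalization, with protein-coding genes only, with at least 10 counts in every library and with the length and GC trend removed, 2 were called higher. Besides EGLN1 and EGLN3, the factors called lower included HIF1AN, the asparaginyl hydroxylase that keeps coactivators off HIF (from 98.7 to 30.5 CPM, log2 fold change −1.70 ± 0.13 SE, FDR = 6.86e-06). The others called lower were the coactivators EP300 (−1.72) and CREBBP (−1.57), and the partner ARNT2 (−2.04), which is best known from neurons. ARNT, the usual partner of the alpha subunits, went the other way, from 44.8 to 89.2 CPM (log2 fold change 0.99 ± 0.13 SE, FDR = 0.000113), just under 2-fold, and it was called in 7 of the 14 settings that kept every library. At the FDR alone, 3 factors were higher and 9 lower.

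EPAS1, the other alpha subunit, had 135 and 128 fragments (6.39 and 5.86 CPM) with vehicle against 16 and 23 (1.80 and 4.56 CPM) with CPI-455. The difference of −1.04 ± 0.45 (SE) on the log2 scale did not pass the test (FDR = 0.0678). EPAS1 was called in 4 of the 14 settings that kept every library, and the value was −1.81, and called, without CPI-455 replicate 2 but −0.44 without CPI-455 replicate 1. HIF3A had at most 2 fragments in a library and was not tested. The ubiquitin ligase that destroys the alpha subunits gave mixed values, none of them called as fitted here. VHL, its receptor, was at 255 and 203 CPM (group means with vehicle and with CPI-455, log2 fold change −0.33, FDR = 0.0285) and the scaffold CUL2 at 33.4 and 21.6 CPM (−0.63, FDR = 0.00783). The RING subunit RBX1 was at 27.8 and 53.8 CPM (0.97, FDR = 0.00127) and the adaptor ELOC at 44.7 and 65.0 CPM (0.54, FDR = 0.00629). RBX1 was called in 5 of the 14 settings that kept every library, with log2 fold changes from 0.78 to 1.17 over these settings. The adaptor ELOB did not pass the FDR (0.25, FDR = 0.122, and −0.56 with the length and GC trend removed). CITED2, which competes with HIF for the coactivators, was at 63.5 and 36.2 CPM (−0.82, FDR = 0.00165).

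**Figure D3:**
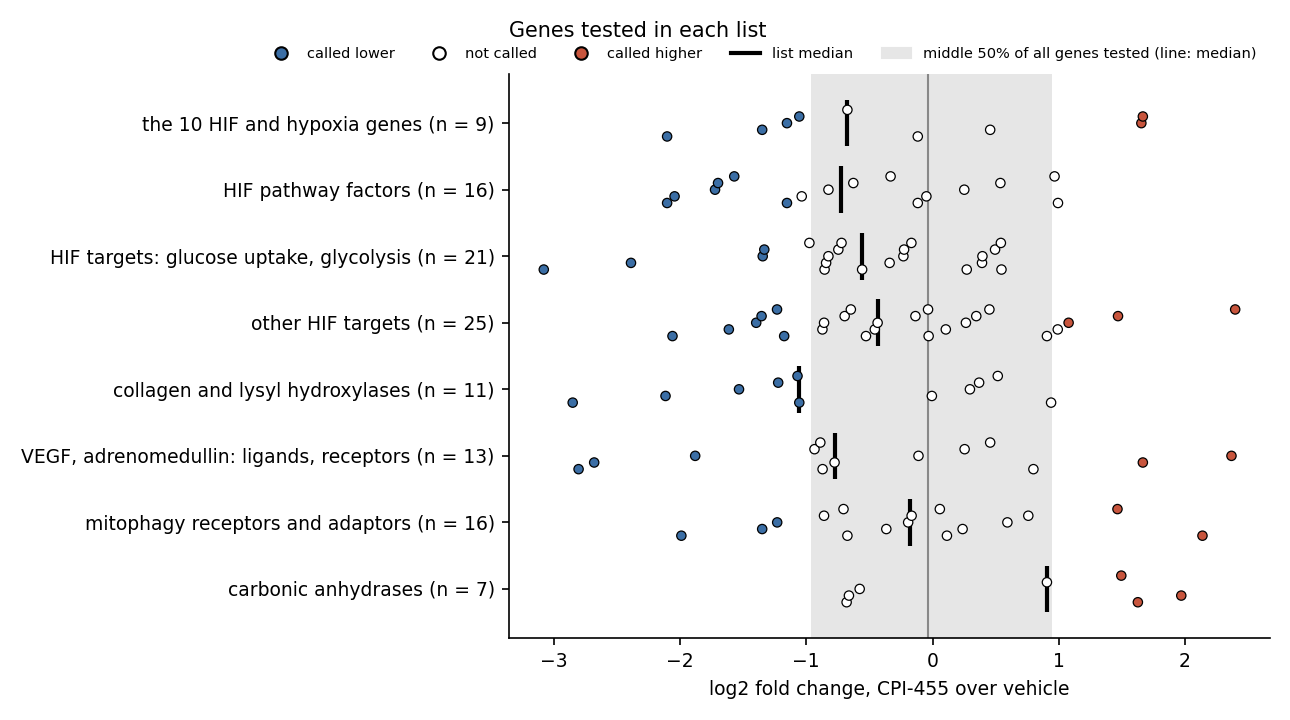
Log2 fold change (CPI-455 over vehicle) of each tested gene in the 10 HIF and hypoxia genes and in 7 related lists; filled points were called lower (blue) or higher (red), black bars are list medians, and the grey band holds the middle 50% of all tested genes. Medians run from −1.06 for collagen and lysyl hydroxylases to 0.91 for carbonic anhydrases.

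Other HIF target genes were read from lists by function. Of 21 genes of glucose uptake and glycolysis, all were tested, 4 were called lower and 0 higher (median log2 fold change −0.56). The share called lower is near the 21.3% over all tested genes, of which 21.0% were called higher, and with library totals as the only scaling 8 were called lower. The 4 genes were the transporters SLC2A1 (from 167 to 19.9 CPM, log2 fold change −3.08 ± 0.14 SE, FDR = 5.83e-07) and SLC2A3 and the hexokinases HK2 (from 314 to 59.9 CPM, −2.39) and HK1 (−1.35). The enzymes further down the pathway were not called, and by FDR alone 4 of the 21 genes were higher and 11 lower.

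Of 28 further HIF targets of mixed function, 25 were tested, 3 were called higher and 6 lower, and the median was −0.43 (all tested genes, 21.0% higher and 21.3% lower). The balance turned to 5 higher and 2 lower with the length and GC trend removed. The genes called higher were SPAG4, a sperm-associated antigen gene (2.40 ± 0.34 SE, FDR = 0.000223), WSB1, a ubiquitin ligase adaptor (1.47), and FAM162A, a mitochondrial protein gene (1.08). Those called lower included ERO1A, the oxidase of disulfide bond formation (−1.35), LOX, which crosslinks collagen (−2.06), and AK4, a mitochondrial adenylate kinase (−1.18). ERO1A was called in 12 and AK4 in 9 of the 14 settings that kept every library. Targets thus lay on both sides of 0 in this list as among the 10 genes.

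P4HA1 is in a list of 12 genes of collagen and lysyl hydroxylases, with their relatives and the subunit P4HB, of which 11 were tested. Of these, 6 were called lower and 0 higher (median log2 fold change −1.06), beside 21.3% and 21.0% of all tested genes. PLOD2, a lysyl hydroxylase of collagen and a HIF target, went from 115 to 26.5 CPM (−2.12 ± 0.14 SE, FDR = 2.63e-06). P4HA2, the paralogue of P4HA1, fell with −1.53 and P4HB, the shared subunit of the enzyme, with −1.22. P4HA3 had at most 12 fragments in a library and was not tested.

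VEGFA and ADM were set beside the ligands and receptors of their families, 16 genes of which 13 were tested. Of these 2 were called higher and 3 lower, with a median of −0.78, and these shares are close to the 21.0% and 21.3% over all tested genes. ADM and RAMP2, an accessory protein of the adrenomedullin receptor (2.37 ± 0.71 SE, FDR = 0.0164), were the genes called higher, the latter on 6 to 27 fragments in a library. RAMP2 was called in 8 of the 13 settings that kept every library and tested it, and with 1 library left out its log2 fold change ran from 1.47 to 2.79 with an FDR of up to 0.313. Under DESeq2, the replicate block and the removal of the length and GC trend 1 gene of the list was called higher, and without CPI-455 replicate 1 the list had 1 higher and 6 lower. The receptor gene CALCRL had 0 to 15 fragments in a library. ADM2, a relative of ADM, fell from 33.4 to 4.44 CPM (−2.80 ± 0.31 SE, FDR = 4.46e-05), opposite to ADM. The VEGF receptor FLT1 (−2.68) and its ligand PGF (−1.88) also fell.

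BNIP3 and BNIP3L are 2 of 16 listed mitophagy receptors and adaptors, all tested, of which 2 were called higher and 3 lower (median −0.18), near the 21.0% and 21.3% of all tested genes. With the length and GC trend removed 1 was called lower, and without either vehicle replicate 1 was called higher. GABARAPL1, which binds such receptors on the growing autophagosome, rose from 35.1 to 155 CPM (2.14 ± 0.15 SE, FDR = 3.46e-06). The mitochondrial kinase PINK1 (−1.99) and BCL2L13, another receptor (−1.23), fell.

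CA9 is 1 of 15 carbonic anhydrase genes, of which 7 were tested, 3 were called higher and 0 lower (median 0.91), beside 21.0% and 21.3% of all tested genes. Without CPI-455 replicate 1, 5 were called higher and 1 lower. CA2, a cytosolic enzyme, went from 53.3 to 165 CPM (1.63 ± 0.13 SE, FDR = 6.69e-06), CA11 rose with 1.97, and the mitochondrial CA5B went from 9.23 to 26.2 CPM. CA12, a cell-surface enzyme like CA9 and also a HIF target, was at 8.33 and 7.92 CPM with vehicle (173 to 176 fragments). With CPI-455 it was at 12.5 and 18.4 CPM (93 to 111 fragments). The rise of 0.91 ± 0.26 on the log2 scale (SE, FDR = 0.0141) was under 2-fold and it was not called. CA12 was called in 4 of the 14 settings that kept every library.

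The changes of these genes were also read beside the base composition of their exons, because the comparison moved with it across all genes. The median log2 fold change was −0.35 in the fifth of tested genes with the lowest exon GC content (23.5 to 41.3%) and 0.32 in the fifth with the highest (57.7 to 85.7%). The share called lower went from 26.8 to 15.9% between these groups and the share called higher from 14.7 to 28.6%. Exon GC content was 38.7% in HIF1A, 40.2% in P4HA1, 40.4% in BNIP3L, 44.03% in EGLN1, 46.8% in EGLN3 and 49.1% in BNIP3. It was 50.1% in ANKRD37, 55.6% in VEGFA and 60.0% in ADM, so the genes lower with CPI-455 were poorer in GC than those that were higher. When the smooth dependence on length and GC content of the exons was taken out of each library, EGLN1 stayed called lower (−1.64) and ADM (1.40) and ANKRD37 (1.65) higher. BNIP3L (−0.93), P4HA1 (−0.76) and EGLN3 (−0.75, FDR = 0.0663) were then no longer called, and HIF1A was at 0.37 (FDR = 0.0275).

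**Figure D4:**
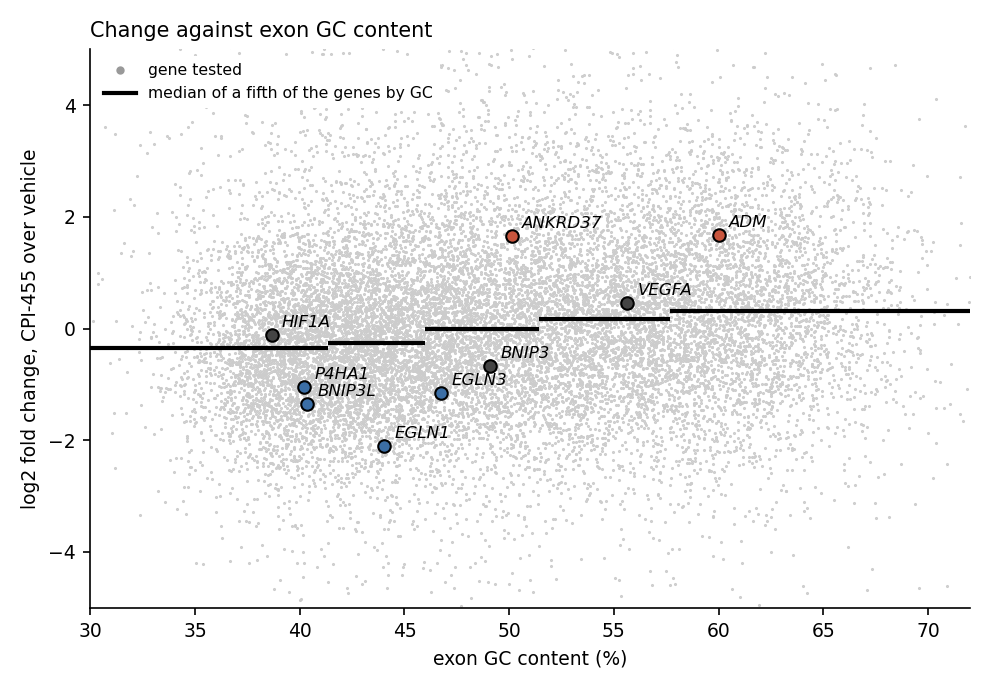
Log2 fold change (CPI-455 over vehicle) against exon GC content (%) for the tested genes in grey, with axes limited to 30 to 72% and to 5 in each direction; black lines are medians of 5 groups of genes by GC content, of nearly equal size, and large points are the 9 tested genes. The line rises from −0.35 to 0.32, EGLN1 lies below it and ADM and ANKRD37 lie above it.

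**Figure D5:**
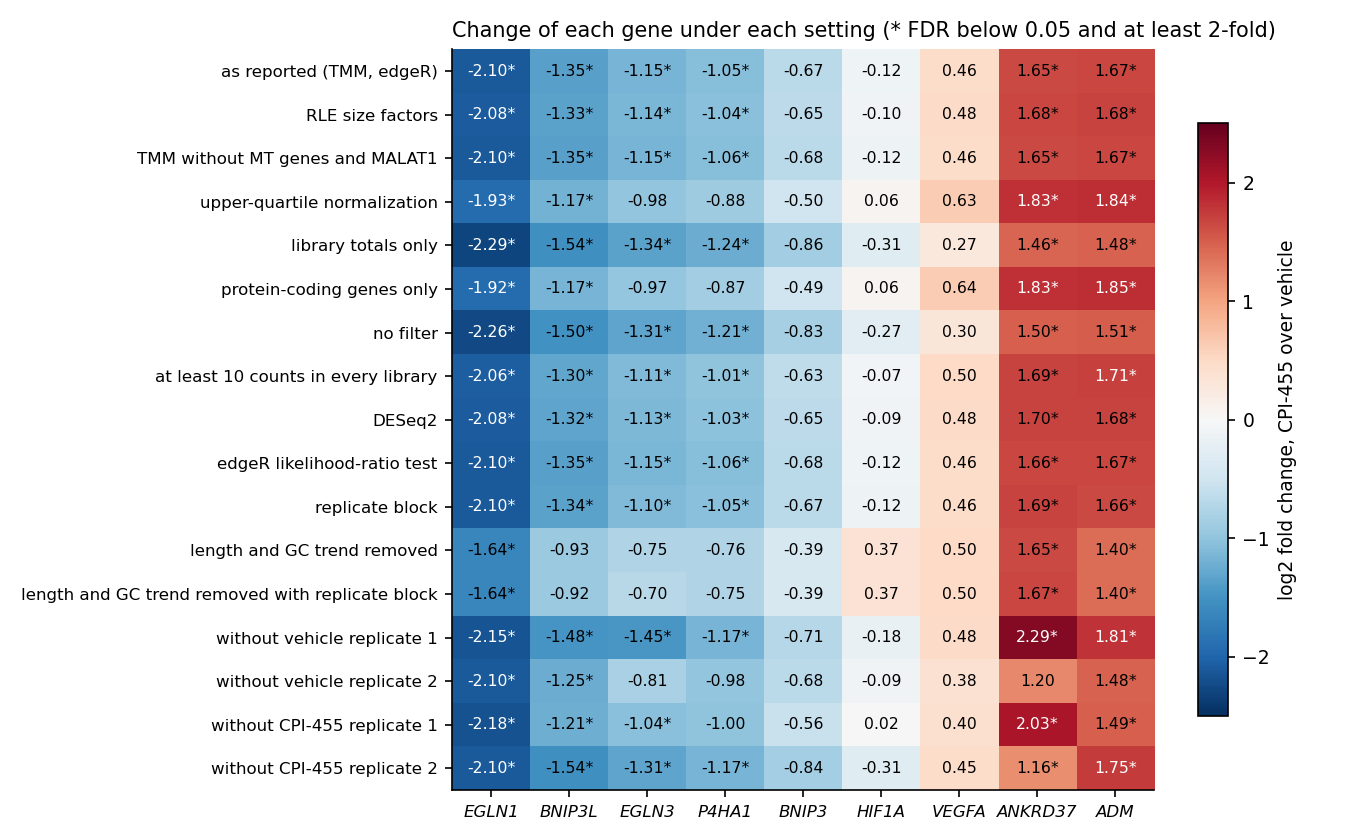
Log2 fold change (CPI-455 over vehicle) of the 9 tested genes under each way of processing and with each library left out; colour gives size and direction, and an asterisk marks an FDR below 0.05 with a change of at least 2-fold. EGLN1 and ADM carry an asterisk in every line, and HIF1A, VEGFA and BNIP3 in none.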

How the data were processed

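RNA-seq of 4 LNCaP libraries was analysed, all with 1 nM R1881, of which 2 had vehicle and 2 had 50 µM CPI-455 according to the sample labels. The labels name Trim Galore, cutadapt, FastQC, STAR and featureCounts. The authors aligned reads to GRCh38, and per the file headers fragments were counted on exons of Ensembl release 83 genes with featureCounts 1.5.0-p1. The deposited values are raw counts, not normalized. Strand was not used, and fragments that matched several places or genes were left out, which lowers the counts of overlapping genes and of genes with copies. How RNA was selected is not given in the sources used here.

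Counts were tested with edgeR 4.0.16 in R 4.3.3 (TMM, filterByExpr with a minimum of 10 counts, glmQLFit and glmQLFTest, no covariates) over 17600 genes, with Benjamini-Hochberg adjustment. Genes were called at an FDR below 0.05 and at least 2-fold. TMM factors were 1.08 and 1.06 (vehicle), then 0.936 and 0.936 (CPI-455). CPM use these factors, FPKM also the exon length of the files. Symbols were matched for 56558 of the 60675 genes. Exon GC content came from the GRCh38 sequence and promoters from RefSeq. Trends with length and GC content of the exons were removed with mgcv 1.9.3, and DESeq2 1.42.0 was an alternative. The test was tried on simulated counts.

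The 10 genes and the lists were chosen with earlier results of these data known. Named genes are the 10 genes, all HIF pathway factors, and of each other list the 3 called genes with the smallest FDR in each direction and genes related to them by name. SLC2A3, KLK2, COL1A1, LUM, MS4A1, CALCRL, UFSP2, PNMA2, ARHGEF39, HIF1A-AS1 and MALAT1 were named after their values were seen. Some genes are not reported here. Libraries of a group differed by more than counting noise (chi-square per degree of freedom of 5.77 and 8.63). The study calls them biological replicates, and p-values measure the spread between these libraries. Limits from 3 counts cover counting error only.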

Additional observations from a re-analysis of the deposited data

How the results depend on the processing

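Across the settings that kept every library, 107 of 126 values of the 9 tested genes kept their direction and their call, 13 lost the call, 2 gained it and 4 changed sign, and for the 37 other named genes 464 of 516 did, with 20, 28 and 4. With 1 library left out the same held for 31 of 36 and 134 of 148 values. The 2 calls gained among the 9 tested genes were VEGFA and BNIP3, in the same fit read by FDR without the 2-fold minimum. Of the 10 genes, 2 were called lower under upper-quartile normalization and with protein-coding genes only (4 as reported, EGLN3 and P4HA1 being lost), and 1 (EGLN1) with the length and GC trend removed, with or without the replicate block. glmTreat against 2-fold called 1 of them higher, 2 lower and 4805 genes in all (7454 as reported). Leaving out each library in turn gave 5577 to 8597 genes in all, 1 to 2 of the 10 genes higher and 2 to 4 lower, the fewest without vehicle replicate 2 (a lone library was assumed to vary like the other group). Signs changed for HIF1A (0.0595 with upper quartile, 0.0645 with protein-coding genes only, 0.37 with the length and GC trend removed and 0.37 with the block as well, −0.31 to 0.0157 with libraries left out), EGLN2 (0.13, 0.13 and −0.24 to 0.11) and ELOB (−0.56 with the trend removed, −0.55 with the block as well). Scaling moved the median log2 fold change of all genes from −0.04 to 0.14 with upper quartile, and −0.23 with library totals, where the 9 tested genes moved by nearly as much. It was −0.41 without the filter, over a larger set of genes. For other changes the cause was not tested. The replicate numbers are shared between groups, and deviations of same-numbered libraries correlated at 0.04 over 17600 genes. With 2 libraries in each group this value cannot show whether same-numbered libraries were handled together. The replicate block gave 2 of the 10 genes higher, 4 lower and 7167 genes in all. Low counts limit the precision for ANKRD37, RAMP2, CA9 and EPAS1, among others.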
